A study of Rattus norvegicus with 18 samples.

Results

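The comparison takes in all 18 of the 18 hippocampal RNA-seq libraries of the series: 7 libraries titled 3 Class V (the seizure libraries) were set against 11 titled sham. The libraries came from adult male Sprague-Dawley rats and from 2 models of acquired temporal lobe epilepsy, systemic kainic acid (KA) and electrical kindling of the hippocampus (KI). In KA, a glutamate receptor agonist was injected in increments until status epilepticus began, after electrodes had been implanted. In KI, the hippocampus was stimulated through implanted electrodes until the animals were fully kindled. KA gave 3 seizure and 7 sham libraries and KI gave 4 and 4. All were polyA libraries of the left hippocampus, dissected 24 hours after the last seizure, and the labels do not say what 3 Class V stands for or how the shams were handled. One seizure effect common to both models was estimated, with model as a covariate, so that the estimate averages over the differences from each model's own shams. The labels do not tie each library to a separate animal, so the p-values measure the spread between these libraries, which may be technical in part.

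Seizures drive hippocampal neurons into prolonged firing, and in the following hours to days the tissue changes its content of neuropeptides, growth factors, channels and glial proteins. Kainic acid status epilepticus is a single severe insult that is known to kill neurons and to make astrocytes and microglia react. Kindling is built up by brief repeated seizures, usually with little cell death. In bulk tissue, fewer cells of a type and less RNA per cell cannot be told apart.

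Total counts ran from 30925368 to 49943021 per library, and 13338 of 17455 genes were tested. Hippocampal marker genes were present in every library, with summed levels of 1440 to 2553 CPM (counts scaled to library size) for the pyramidal cell list and 247 to 394 CPM for the dentate granule cell list. The log2 levels of KA sham 1 correlated at a mean r of 0.978 with the other KA shams and of 0.993 with the KI seizure libraries. Those of KA sham 6 and KA sham 5 were also closer to the KI seizure libraries (0.989 and 0.984) than to their own group (0.980 and 0.982). The same held for KI sham 2 (0.977 against 0.974 with its own group) and KI sham 4 (0.974 against 0.957). KA sham 2 was the KA sham with the lowest r to its group (0.970), and KI sham 1 and KI sham 4 had the lowest of all (0.951 and 0.957). The share of counts on ribosomal RNA-like genes was highest in KI sham 2 (16.4%), KI 3 Class V 1 (16.3%) and KA sham 4 (9.67%), and at most 2.0% elsewhere. KI sham 4 and KA sham 3 carried choroid plexus genes at summed levels of 1445 and 853 CPM, where the other libraries held 116 to 218 CPM, and a blood cell list dominated by globins ran from 330 to 5089 CPM in the shams and from 324 to 736 CPM in the seizure libraries. The score of ribosomal protein genes, a mean of centred log2 levels, ran from -0.48 to 0.97 in the shams and from -0.49 to 0.09 in the seizure libraries. The part of these differences in the results was not tested, except where a value without the library or with the score in the fit is given.

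Only 18 genes were called on average over both models (edgeR quasi-likelihood test, Benjamini-Hochberg adjusted p under 0.05), 6 of them higher in the seizure libraries, which is 0.045% of the genes tested, and 12 lower, which is 0.09%. Among the genes that rose were Trh, Loxhd1, Cdh23, Aqp4 and Dgka. The genes that fell were Shox2, Cdkn1c, Pnlip, Fxyd7, Rgr, Tmem163, Rasd2, Neu4, Marcksl1, Gal3st1, B3gat2 and Rras2. All 18 moved in the same direction in KA and KI, which a test of a common effect favours, and 57.7% of all genes tested did so. None of the 18 was called in the test of KA minus KI, which the choice by a common effect also favours. The seizure and sham libraries of both models did not overlap at all for 6 of the 18 (against 0.112% of all genes tested), among them Aqp4, Fxyd7, Rasd2, Neu4 and Rgr. Of the 12 others, 10 overlapped through 1 sham library each. The 18 were chosen by the same comparison, which favours a lack of overlap, so the share over all genes is no yardstick for it. KA sham 1 was the sham nearest to the seizure libraries for 14 of the 18. How often this was so over all genes tested was not computed.

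**Figure D1:**
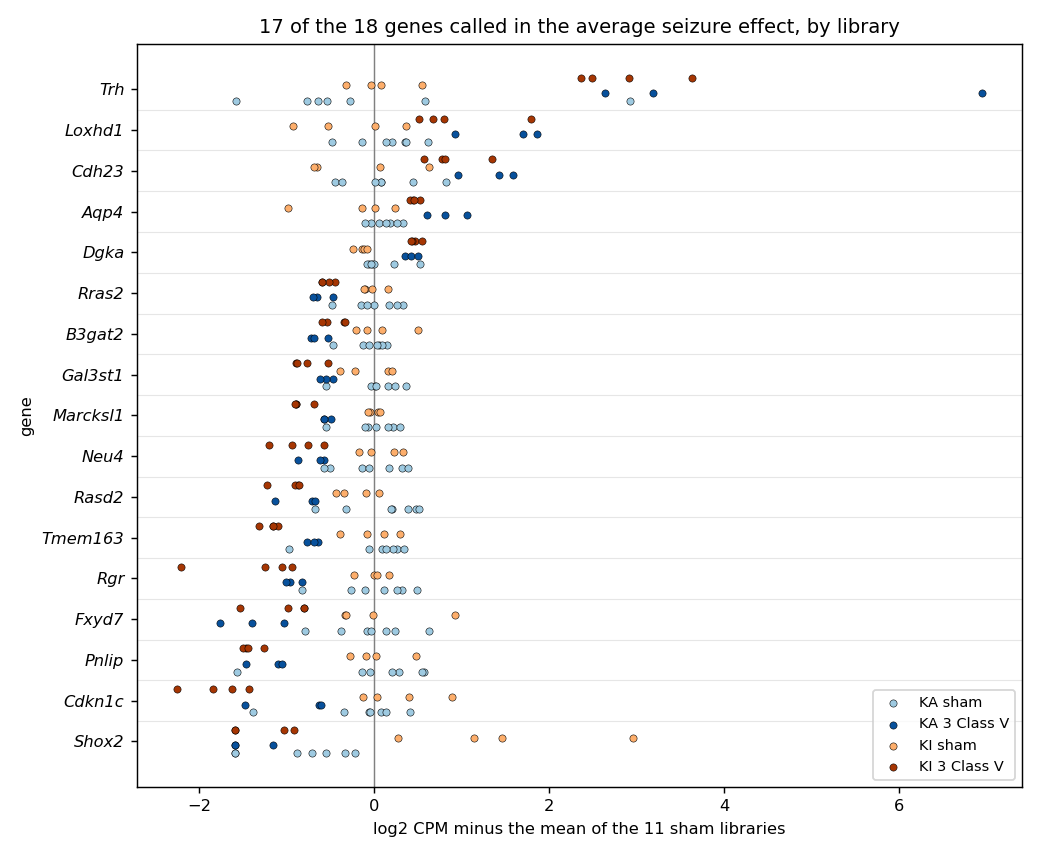
Level of 17 called genes in every library as log2 CPM minus the mean of the 11 shams (x axis), 1 row per gene, with KA in blue and KI in orange and the seizure libraries in the darker shade. The seizure libraries lie to 1 side of most shams in every row, Trh reaches far to the right in 1 KA library, and Shox2 is spread widely among the shams.

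Sequence upstream of the start site was looked up for the called genes, because activity-regulated transcription factors bind short motifs there. RefSeq promoters (build GRCr8) were matched by symbol for 14 of the 18. The 250 bases before the start were searched on both strands for the EGR site GCGNGGGCG, the cAMP response element TGACGTCA, the AP-1 site TGANTCA and the CArG box. The EGR site was found in 4 of the 14 (28.57%), against 8.153% of 10462 promoters of genes tested and 4.534% of all 27457. The others were found in 0 of 14, against 2.753%, 4.559% and 1.099% of the promoters of genes tested. The 4 matching promoters were rich in G and C (68.8% to 78.4%), and the part of base composition in the matches was not tested. A match describes the letters only. Shown are Rasd2, which fell, and Cdh23, which rose, each with 2 EGR matches in capitals (those of Cdh23 overlap), and Trh, the gene with the largest rise, which held none of the 4 motifs. The Rasd2 stretch is chr19:13599778-13600027 on the plus strand, that of Cdh23 is chr20:29165333-29165582 on the minus strand and that of Trh is chr4:126301763-126302012 on the minus strand, each written 5′ to 3′ on the gene's strand.
Rasd2: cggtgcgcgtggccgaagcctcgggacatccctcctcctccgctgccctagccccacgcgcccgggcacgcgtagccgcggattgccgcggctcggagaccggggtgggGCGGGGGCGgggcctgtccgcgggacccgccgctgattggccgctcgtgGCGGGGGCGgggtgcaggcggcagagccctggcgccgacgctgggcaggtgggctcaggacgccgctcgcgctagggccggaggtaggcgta
Cdh23: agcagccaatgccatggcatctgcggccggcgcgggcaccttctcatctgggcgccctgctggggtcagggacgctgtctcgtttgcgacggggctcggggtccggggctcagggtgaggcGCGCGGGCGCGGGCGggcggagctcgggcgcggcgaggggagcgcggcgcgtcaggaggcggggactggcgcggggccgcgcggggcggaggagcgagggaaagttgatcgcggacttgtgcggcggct
Trh: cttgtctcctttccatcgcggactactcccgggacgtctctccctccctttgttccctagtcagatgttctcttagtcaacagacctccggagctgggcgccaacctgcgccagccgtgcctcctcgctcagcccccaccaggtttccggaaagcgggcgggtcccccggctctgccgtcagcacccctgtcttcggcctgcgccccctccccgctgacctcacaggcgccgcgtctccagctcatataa

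Trh, which encodes the precursor of thyrotropin-releasing hormone, had the largest rise. It stood at 28.4, 19.4 and 386 CPM in KA seizure libraries 1 to 3 and at 16.1, 23.6, 17.5 and 38.9 CPM in KI seizure libraries 1 to 4. The KI shams held 2.46, 3.00, 4.52 and 3.25 CPM, and the KA shams ran from 0.994 to 23.7 CPM with a median of 2.11. All 7 seizure libraries were above 10 of the 11 shams, and KA sham 1 held the 23.7 CPM. The log2 fold change was 3.91 ± 0.67 (SE), a 15-fold rise (edgeR adjusted p = 0.0269), with 4.75 within KA and 2.86 within KI. KA 3 Class V 3 carries much of the size: without it the log2 fold change was 2.54 and the adjusted p 0.0850. DESeq2 gave Trh a log2 fold change of 3.89 and no p. Trh was also called within KA (edgeR adjusted p = 0.0281), where 1 of the 3 seizure libraries held the 386 CPM. Within KI it was not called (edgeR adjusted p = 0.0633).

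Aqp4, the water channel of astrocyte endfeet, rose as well. It stood at 1187, 1415 and 1030 CPM in the KA seizure libraries and at 927, 978, 901 and 928 CPM in those of KI, against 343 to 857 CPM in the shams (median 708). The groups did not overlap. The log2 fold change was 0.66 ± 0.13 (edgeR adjusted p = 0.0424), with 0.71 in KA and 0.61 in KI. Aqp4 was the only one of 14 tested genes of astrocyte homeostasis that was called. Its neighbours on that list went various ways: 7 of 14 were positive and the median was 0.01. At an unadjusted edgeR p under 0.05 were 3 of the 14 on the higher side, Aqp4 among them, and 1 on the lower. Of all genes tested 9.77% and 13.6% were. Gja1, also on the list, had 0.28 (0.41 in KA, 0.14 in KI). The values were 0.40 for Slc1a2 (-0.06 in KA, 0.84 in KI) and 0.04 for Slc1a3, the astrocyte glutamate transporters. Aldoc, an astrocyte glycolytic enzyme, had -0.34.

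Cdh23 and Loxhd1, both known from the hair cells of the inner ear, rose from low levels. Cdh23 ran from 3.78 to 7.65 CPM in the seizure libraries (median 4.95) and from 1.55 to 4.50 CPM in the shams (median 2.65), with 2 shams inside the seizure range. Its log2 fold change was 1.10 ± 0.21 (edgeR adjusted p = 0.0424). Loxhd1 ran from 1.21 to 3.15 CPM against 0.415 to 1.30 CPM, with a log2 fold change of 1.35 ± 0.23 (edgeR adjusted p = 0.0269). Dgka, a diacylglycerol kinase that ends diacylglycerol signalling, rose least, by 0.47 ± 0.09 on the log2 scale (edgeR adjusted p = 0.0365). It held 44.7 to 51.3 CPM in the seizure libraries and 29.7 to 40.9 CPM in 10 shams, while KA sham 1 held 50.3 CPM.

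Among the genes that fell, Fxyd7, a small regulatory subunit of the neuronal sodium pump, stood at 39.8, 30.7 and 23.8 CPM in the KA seizure libraries and at 46.6, 40.8, 46.7 and 27.9 CPM in those of KI. The shams held 47.0 to 154 CPM (median 79.2), so that the groups did not overlap, though the nearest values differed by less than 1 CPM. Fxyd7 fell by 1.28 ± 0.22 on the log2 scale (edgeR adjusted p = 0.0269). Cdkn1c, an inhibitor of cyclin-dependent kinases, stood at 15.1, 8.38 and 15.3 CPM in KA and at 4.88, 7.54, 6.48 and 8.67 CPM in KI, against 8.95 to 43.3 CPM in the shams (median 23.9). KA sham 1 held the lowest sham value. The log2 fold change of Cdkn1c was -1.39 ± 0.27 (edgeR adjusted p = 0.0481), with -0.77 within KA and -2.11 within KI.

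Rasd2 and Rras2, a pair of Ras-family GTPases, and Marcksl1, a substrate of protein kinase C that binds actin, fell together with them. Rasd2 ran from 55.5 to 80.9 CPM in the seizure libraries and from 81.2 to 184 CPM in the shams, with no overlap. Its log2 fold change was -0.88 ± 0.15 and that of Rras2 -0.58 ± 0.10 (edgeR adjusted p = 0.0269 for both). Marcksl1 stood at 312, 329 and 312 CPM in the KA seizure libraries and at 249, 287, 250 and 246 CPM in those of KI. The KI shams held 478, 446, 441 and 483 CPM, and the KA shams 317 to 566 CPM, the 317 CPM again in KA sham 1. Marcksl1 had a log2 fold change of -0.70 ± 0.10 (edgeR adjusted p = 0.0133).

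Among the genes that fell, Gal3st1, the sulfotransferase that makes the myelin lipid sulfatide, ran from 14.5 to 19.4 CPM in the seizure libraries and from 18.3 to 34.5 CPM in the shams, with a log2 fold change of -0.66 ± 0.12 (edgeR adjusted p = 0.0270). Neu4, a sialidase that trims sialic acid from glycans, ran from 25.8 to 39.6 CPM against 39.7 to 77.0 CPM, with a log2 fold change of -0.81 ± 0.14. B3gat2, a glucuronyltransferase, ran from 28.6 to 37.5 CPM against 34 to 66.7 CPM, with a log2 fold change of -0.58 ± 0.10. Pnlip, a triglyceride lipase best known from the pancreas, ran from 4.90 to 6.72 CPM in the seizure libraries. It held 11.5 to 20.7 CPM in 10 shams and 4.70 CPM in KA sham 1, and its log2 fold change was -1.39 ± 0.22 (edgeR adjusted p = 0.0194). Gal3st1 and B3gat2 overlapped through KA sham 1 alone.

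Tmem163, a zinc transporter of synaptic vesicles, stood at 14, 12.8 and 13.5 CPM in the KA seizure libraries and at 9.73, 10.2, 8.76 and 9.78 CPM in those of KI, against 16.7 to 27.6 CPM in 10 shams and 11.1 CPM in KA sham 1. Its log2 fold change was -0.96 ± 0.15 (edgeR adjusted p = 0.0194). Rgr and Shox2 were called from very low levels. Rgr, an opsin-like receptor, held 0.0845 to 0.303 CPM in the seizure libraries and 0.304 to 0.834 CPM in the shams. Shox2, a homeodomain transcription factor, was at 0 in 4 of the 7 seizure libraries and at most 0.0315 CPM in the rest, against 0.138, 0.383, 0.295 and 1.17 CPM in the KI shams and 0 to 0.0829 CPM in the KA shams. Its fitted log2 fold change of -4.27 ± 0.76 rests on few reads: the KI shams held 4, 12, 12 and 50, the 50 in KI sham 4, and each other library at most 3.

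**Figure D2:**
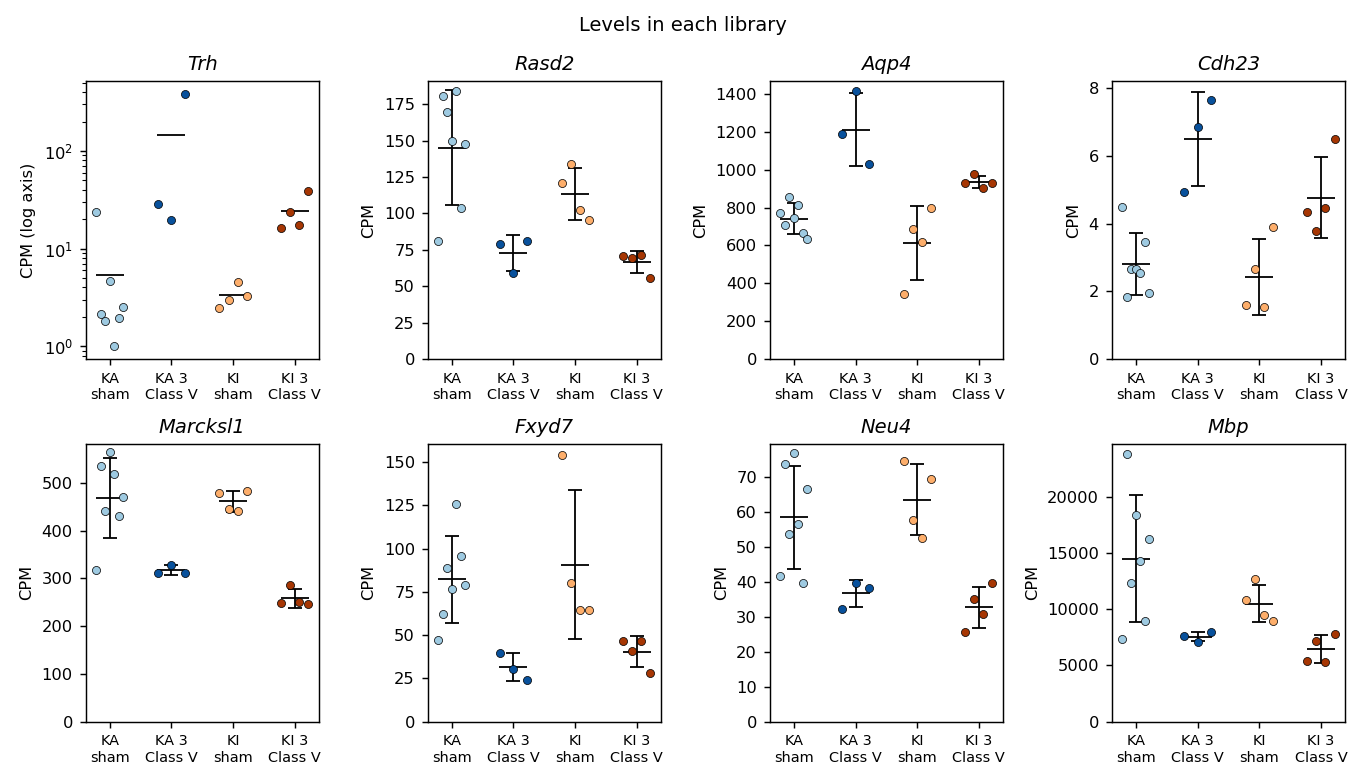
CPM of 8 genes in each library (points) by group, with the group mean as a bar and the SD as whiskers (no SD for Trh, whose axis is logarithmic). Rasd2, Aqp4, Fxyd7 and Neu4 show no overlap between seizure and sham libraries, while 1 KA sham lies at the seizure level for Trh and Marcksl1.

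Which genes are called depends strongly on the libraries in the fit. Of the 18 fits that leave out 1 library, Marcksl1 was called in 17, Tmem163 and Pnlip in 16, and Trh, Fxyd7 and Loxhd1 in 13. Rasd2 and B3gat2 were called in 10, Neu4 in 9, Gal3st1 and Rras2 in 8, Rgr in 5, and Aqp4, Dgka, Cdkn1c and Cdh23 in 3. Shox2 was called in 8 of the 15 fits that tested it. No sign changed. Without KA sham 1, 196 genes were called and all 18 were among them, and without KI sham 4, 244 genes were called and 17 of the 18 were among them. Further, 6 genes were called without KI sham 2, 11 without KI sham 3, 4 without KA sham 4, 7, 2, 9 and 1 without KI 3 Class V 1 to 4, and 7, 8 and 5 without KA 3 Class V 1 to 3. Leaving out each of the others gave 13 to 23. With the ribosomal protein score in the fit 5 genes were called, 3 of them among the 18, and without the 3 libraries rich in ribosomal RNA-like counts 1 was, also among the 18.

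**Figure D3:**
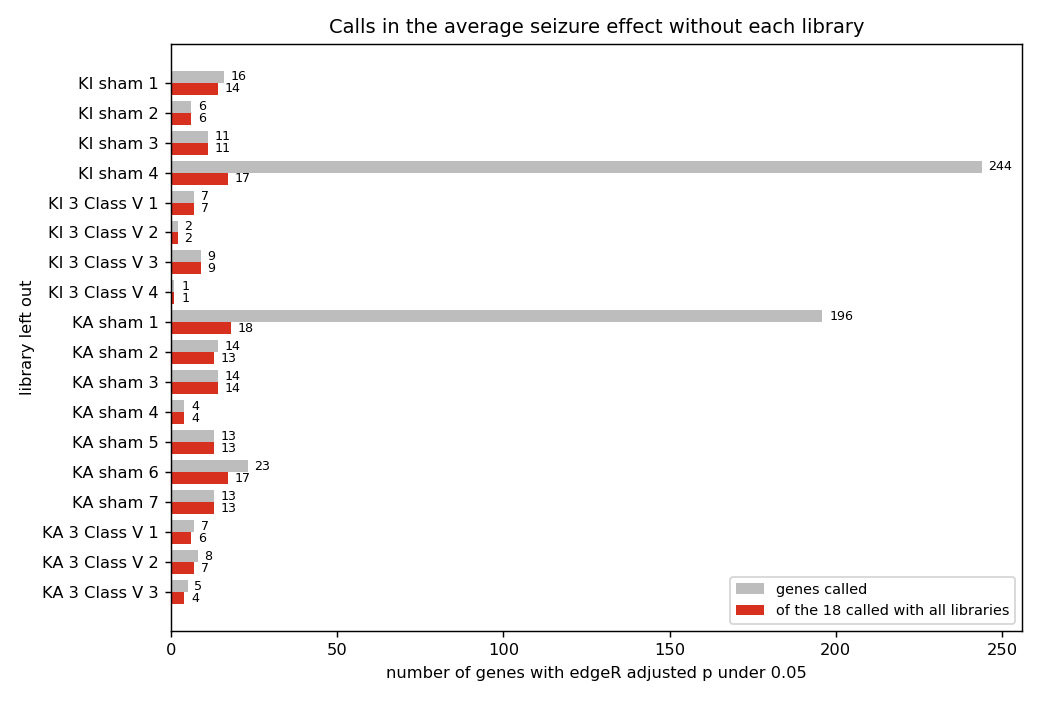
Number of genes called in the average effect (x axis, edgeR adjusted p under 0.05) when the library on the y axis is left out, in grey, and how many of the 18 are among them, in red. The count lies between 1 and 23 except without KA sham 1 (196) and without KI sham 4 (244).

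All 7 seizure libraries lay above all 11 shams for 8 genes (0.06% of those tested) and below them for 7 (0.0525%), whatever their p. Besides the called genes, those above were Hspa13, Sec63, Pik3r1, Gclc, Nebl and Ntrk2, and those below Gipc1, Rbck1 and Faim, none of them called (edgeR adjusted p 0.0954 to 0.163). Ntrk2, the receptor of brain-derived neurotrophic factor, held 778 to 883 CPM against 601 to 777 CPM, a log2 difference of 0.25. Hspa13, a chaperone of the endoplasmic reticulum, held 31.3 to 37.9 CPM against 25.5 to 30.8 CPM. Sec63, part of the channel through which new proteins enter that compartment, held 116 to 128 CPM against 94.2 to 112 CPM. Gclc, which starts glutathione synthesis, held 48.6 to 54.3 CPM against 34 to 48.5 CPM. These differences were small, 0.23 to 0.53 on the log2 scale for the 6 above. The genes were picked because no library crossed, so that is no added result. Some gaps were narrow: the nearest sham and seizure values were 48.52 and 48.56 CPM for Gclc, 777 and 778 CPM for Ntrk2, and 22.4 and 22.5 CPM for Nebl.

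Lists of genes grouped by role or cell type held 2 called genes in all, Trh and Aqp4. They are described by their medians and by the members at an unadjusted p under 0.05, a level that 9.77% of all genes tested reached on the higher side and 13.6% on the lower side. The median over all genes tested was -0.0045. Of the 15 tested genes of myelin and oligodendrocytes all 15 had a log2 difference below 0, as did 50.6% of all genes, and 12 were at that p level, with a median of -0.45 (-0.39 in KA, -0.55 in KI). None was called in edgeR, while 7 were in DESeq2, in which 1.26% of all genes were called lower, and 8 in limma-voom, in which 1.99% were. Without KA sham 1, edgeR called 7, against 0.72% of all genes called lower in that fit, and without KA sham 1, KI sham 3 and KI sham 4, a choice made after seeing the data in which 5.9% of all genes were called lower, it called 9. Mbp, myelin basic protein, held 5345 to 7942 CPM in the seizure libraries (median 7215) and 7350 to 23781 CPM in the shams (median 12298), and only KA sham 1, at 7350 CPM, lay within the seizure range. Its log2 difference was -0.82 ± 0.20 (edgeR adjusted p = 0.107). That of Cnp, a myelin phosphodiesterase, was -0.60 ± 0.13, and that of Mog, an outer myelin protein, -0.55 ± 0.13 (edgeR adjusted p = 0.0902 and 0.104). Sirt2, an oligodendrocyte-rich deacetylase named after its values were seen, had -0.64 ± 0.13 (edgeR adjusted p = 0.0564).

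Subunits of respiratory chain complex I, which passes electrons from NADH to ubiquinone, showed a like pattern. Of 28 tested, 27 had a log2 difference below 0 and 22 were at an unadjusted p under 0.05, with a median of -0.46. All 28 had the same sign in both models, against 57.7% of all genes tested. None was called in edgeR, DESeq2 or limma-voom. Ndufb8 held 188 to 237 CPM in the seizure libraries and 155 to 623 CPM in the shams, with a log2 difference of -0.68 ± 0.24 (edgeR adjusted p = 0.170), and Ndufa7 had -0.60 ± 0.20. The mean centred level of the list ran from -0.51 to 0.81 in the shams and from -0.33 to -0.05 in the seizure libraries, and the shams with the highest levels were also those with the highest ribosomal protein scores, KI sham 1 and KA sham 2. With the ribosomal protein score in the fit, the median was -0.07 and 0 of 28 were at an unadjusted p under 0.05. The myelin median was -0.42 in that fit, with 11 of 15 at that level. Without KA sham 1, KI sham 3 and KI sham 4, 16 of the 28 were called lower, against 5.9% of all genes.

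Choroid plexus genes, which mark tissue beside the hippocampus, had a median of -1.42 with all 12 below 0, and Ttr, the transthyretin made there, held 4.13 to 23.1 CPM in the seizure libraries and 11.2 to 887 CPM in the shams. Without KA sham 1, KI sham 3 and KI sham 4 that median was -0.53, without KI sham 4 alone it was -0.36 (11 genes tested), and without KA sham 3 alone -0.95. Blood cell genes had a median of -1.37 with 6 of 9 at an unadjusted p under 0.05, among them Slc4a1, the red cell anion exchanger (-1.65), and Hba-a1, an alpha globin (-1.65). With all libraries edgeR called none of these 21 genes. Without KA sham 1, KI sham 3 and KI sham 4 it called 6 blood cell genes and 1 choroid plexus gene lower, against 5.9% of all genes. With the ribosomal protein score in the fit, the blood cell median was -0.70, with 3 lower and 1 higher at an unadjusted p under 0.05. The choroid plexus median was -1.65 in that fit, with 9 of 12 lower at that level. DESeq2 called 5 of the blood cell genes lower, against 1.26% of all genes. In limma-voom, where 1.99% of all genes were called lower, 3 of the blood cell genes and 1 choroid plexus gene were.

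Neuropeptide and growth factor genes were mixed. Of 18 tested neuropeptide and granin genes, Trh was called, 5 were at an unadjusted p under 0.05 on the higher side and 3 on the lower. The same sign in both models was seen for 15 (83.3%), against 57.7% of all genes tested. Npy, neuropeptide Y, held 113, 194 and 877 CPM in the KA seizure libraries and 286, 327, 313 and 320 CPM in those of KI. The shams held 58.7 to 193 CPM apart from KA sham 1, at 337 CPM, and the log2 difference was 1.48 ± 0.37 (edgeR adjusted p = 0.110). Of 12 neurotrophin and growth factor genes, 7 were at that level on the higher side and 1 on the lower. Bdnf, brain-derived neurotrophic factor, had 0.83 ± 0.22, with 0.78 in KA and 0.88 in KI. Ntf3, neurotrophin-3, had -0.93 ± 0.23 (edgeR adjusted p = 0.125 and 0.110). KA sham 1 held the highest sham level of Bdnf, Npy and Inhba and the lowest of Ntf3.

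Of 19 genes of activin and TGF-beta signalling 6 were at an unadjusted p under 0.05 on the higher side and 1 on the lower. Acvr1c, a type I receptor of that family, held 4.60, 7.24 and 13.1 CPM in the KA seizure libraries and 13.7, 12.2, 14.8 and 10.8 CPM in those of KI, against 0.242 to 6.48 CPM in 10 shams and 10.7 CPM in KA sham 1, with a log2 difference of 1.77 ± 0.49 (edgeR adjusted p = 0.140). Inhba, the activin beta A subunit, had 1.51 ± 0.37 (edgeR adjusted p = 0.110), and 1 library, KA 3 Class V 3, held 20.5 CPM against 2.34 to 4.05 CPM in the other seizure libraries. Among the 18 activity-regulated transcription factors and effectors 3 were at that level, all on the higher side, and the median was 0.12. That median was made up of 0.27 in KA and -0.11 in KI. The same sign in both models was seen for 7 of the 18, against 57.7% of all genes tested. In the test of KA minus KI 3 were called, as were 3.8% of all genes. Fosb, a subunit of AP-1, had 0.98 ± 0.22 (edgeR adjusted p = 0.0954). Fos itself had an average of 0.38, made up of 1.34 in KA and -0.82 in KI, and the difference between the models was called (edgeR adjusted p = 0.00131).

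Receptor and channel genes had medians above that of all genes: 0.47 for 14 GABA receptor genes, 0.31 for 22 glutamate receptor genes, 0.33 for 26 potassium and HCN channel genes and 0.38 for 23 sodium and calcium channel genes. In that order, 6, 2, 6 and 3 were higher at an unadjusted p under 0.05, and 2, 0, 1 and 0 lower. Of all genes tested 9.77% were higher and 13.6% lower at that level. In edgeR none of the receptor and channel genes was called on average. DESeq2 called 1 GABA receptor gene lower and 1 potassium or HCN channel gene higher, where 1.26% of all genes were called lower and 1.02% higher. In limma-voom 2.12% of all genes were called higher and 1.99% lower. Called higher there were 2 of the GABA list, 1 glutamate, 1 potassium or HCN and 2 sodium or calcium genes. Called lower was 1 of the GABA list. With the ribosomal protein score in the fit the medians were 0.16, 0.07, 0.06 and 0.04, and the GABA receptor genes at an unadjusted p under 0.05 on the higher side went from 6 to 1. The medians lay near 0 in KA (0.01, -0.03, -0.09 and -0.14) and higher in KI (0.76, 0.55, 0.65 and 0.85). Gabrd, the delta subunit of extrasynaptic GABA receptors of granule cells, went the other way, as 1 of the 2 GABA receptor genes lower at that level. It held 15.9 to 26.7 CPM in the seizure libraries and 24.4 to 54.5 CPM in the shams, with -0.53 in KA and -0.80 in KI and an average of -0.66 ± 0.15 (edgeR adjusted p = 0.0992). Plk5, a kinase-like protein of the dentate granule cell list, had -1.57 ± 0.35 (edgeR adjusted p = 0.0954) and only KA sham 1, at 3.18 CPM, lay within the seizure range of 1.49 to 6.16 CPM.

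Ptgs2, the inducible cyclooxygenase, held 17.9, 24.2 and 69.1 CPM in the KA seizure libraries and 44.9, 38.7, 42.8 and 35.1 CPM in those of KI, against 2.84 to 34.7 CPM in the shams (median 13.2), with a log2 difference of 1.44 ± 0.36 (edgeR adjusted p = 0.110). Mmp9, a matrix metalloprotease, held 9.87, 23.5 and 31.5 CPM in the KA seizure libraries and 45.5, 40.1, 44.3 and 28.2 CPM in those of KI. KA sham 1 held 41.4 CPM of it and the other shams 3.18 to 9.91 CPM, and the log2 difference was 1.98 ± 0.52 (edgeR adjusted p = 0.123). Both genes thus lay in KA sham 1 among the seizure libraries. Of the 16 matrix protease genes 5 were at an unadjusted p under 0.05 on the higher side and 1 on the lower, and of 9 prostaglandin genes 1 on each side. The median of the matrix protease genes was 0.58 in KA and -0.19 in KI. That of the prostaglandin genes was 0.48 in KA and -0.52 in KI.

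Heat shock and stress genes had 5 of 18 at that level on the higher side and 0 on the lower. Their median was 0.10, made up of 0.19 in KA and -0.28 in KI. Hspa5, the main chaperone of the endoplasmic reticulum, had 0.38 ± 0.13 (edgeR adjusted p = 0.170). The 12 MAP kinase feedback genes had 4 higher and 1 lower at that level. Sox11, a transcription factor of immature neurons, had 0.93 ± 0.30, and its list of 11 had 1 on each side. The 12 pyramidal cell genes had a median of 0.03, made up of -0.21 in KA and 0.28 in KI, and none was at that level. The 7 dentate granule cell genes had 0.08, with -0.12 in KA and 0.21 in KI. The 13 interneuron genes had a median of 0.32 (0.10 with the ribosomal protein score in the fit), made up of -0.04 in KA and 0.55 in KI. At that level 4 were higher, among them Npy, and 2 lower, Pvalb (-0.51) and Calb2 (-0.52), calcium-binding proteins of interneuron classes. Thalamus and cortex genes, which mark tissue next to the dissection, had a median of -0.03 with 4 of 9 lower at that level.

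The 10 genes of the DNA methylation machinery had a median of 0.08, with 1 higher, Gadd45b (0.62 ± 0.25), a factor of active demethylation, and 1 lower, Mbd3 (-0.23 ± 0.10). The value of Gadd45b came from KA, with 1.23 there and -0.08 in KI, and 60.3 CPM in KA 3 Class V 3 stood over 10.8 to 22.5 CPM in the shams. Cholesterol synthesis genes had 2 of 18 higher and a median of 0.11, made up of -0.10 in KA and 0.35 in KI. The same sign in both models was seen for 5 of these 18, against 57.7% of all genes tested. In the test of KA minus KI 3 were called, as were 3.8% of all genes. Endothelial and pericyte genes had 0 of 13 on either side, and oligodendrocyte precursor genes 3 of 8 lower with a median of -0.09.

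**Figure D4:**
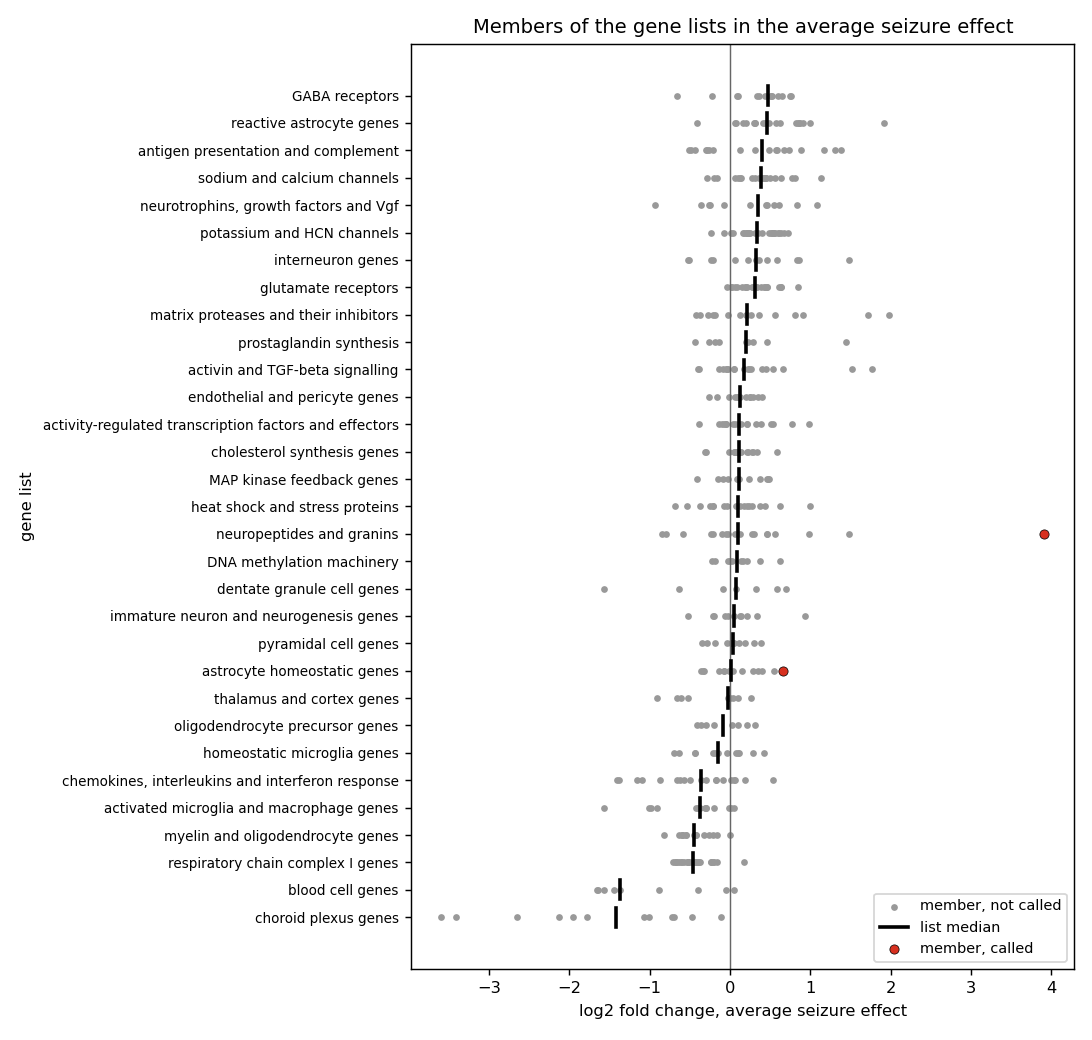
Log2 fold change of the average seizure effect (x axis) for each tested member of 31 gene lists (rows), with the list median as a black bar and called members in red. Trh and Aqp4 are the called members, and the complex I, myelin, blood and choroid plexus lists lie furthest to the left.

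Astrocyte reaction and immune genes gave averages that describe neither model. Of 20 reactive astrocyte genes 19 had an average above 0, as did 49.4% of all genes, and 9 were at an unadjusted p under 0.05, with a median of 0.46, but the median was 1.29 in KA and -0.29 in KI, only 3 had the same sign in both, and 7 were called in the test of KA minus KI (3.8% of all genes were: 3.15% with the higher value in KA, 0.652% in KI). Without KA sham 1, KI sham 3 and KI sham 4, 10 of the 20 were called higher on average, as were 2.82% of all genes. Gfap, the astrocyte filament protein, held 7391, 9278 and 8669 CPM in the KA seizure libraries and 2264 to 5535 CPM in the KA shams, a rise within KA (edgeR adjusted p = 0.0410), against 3114, 3303, 3101 and 4499 CPM in the KI seizure libraries and 2641, 4068, 5033 and 3179 CPM in the KI shams. Cd74, the invariant chain of antigen presentation, held 367, 515 and 396 CPM in the KA seizure libraries and 22.4 to 115 CPM in the KA shams. It held 42.0, 48.3, 36.8 and 37.2 CPM in the KI seizure libraries against 51.5, 92.2, 85.6 and 118 CPM in the KI shams. Its average of 1.38 ± 0.59 was made up of 3.05 in KA and -1.08 in KI (edgeR adjusted p for the difference = 0.00158). Microglial genes differed in the same way: the median of 15 activated microglia and macrophage genes was 0.39 in KA and -1.84 in KI, that of 13 homeostatic ones 0.49 and -0.70, and 6 genes of each list were called in the difference. Chemokine, interleukin and interferon genes had medians of 0.20 and -1.75, with 2 of 19 called in it. Of the 18 antigen presentation and complement genes 0 had the same sign in both models, against 57.7% of all genes tested. In the difference 13 were called. KI sham 3 stood apart as the highest KI sham for Isg15 (61.7 CPM), Irf7 (165 CPM) and Aif1 (105 CPM). Without KA sham 1, KI sham 3 and KI sham 4 the average median was 0.04 for activated microglia and macrophage genes (-0.38 with all libraries). It was -0.08 for the homeostatic ones (-0.15), -0.06 for the chemokine list (-0.36) and 0.66 for the antigen presentation list (0.40). The KI medians without these shams were not computed.

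Across all genes, the log2 fold changes within KA and within KI had a Pearson r of 0.03 and a Spearman rho of 0.13, a description over genes that are not independent, from groups that share no library. Within KA 23 genes were called, all higher (0.172%), and within KI 1332 were (9.99%), 632 higher (4.74%) and 700 lower (5.25%). Of the 23, 2 had the same sign in KI (8.70%), among them Trh, and 21 were called in the difference. Of the 1332, 578 had the same sign in KA (43.4%), and 340 were called in the difference. Over all genes tested, 57.7% had the same sign in both models. The KA minus KI test called 507 genes, 420 of them with the higher value in KA. Of the 18 genes called on average 16 were also called within KI and 2 within KA. A fit that weighs both models equally called 25 genes, 17 of them shared with the 18.

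**Figure D5:**
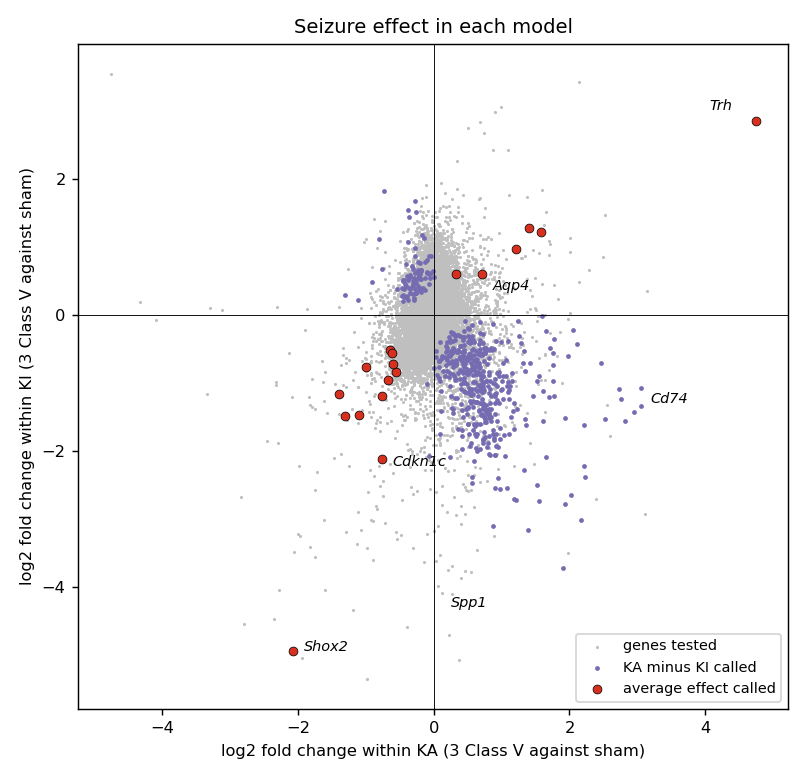
Log2 fold change within KA (x axis) against that within KI (y axis) for each gene tested, in grey, with the 507 genes called in KA minus KI in purple and the 18 called on average in red. The red genes lie at the lower left and upper right, while most purple genes, among them Cd74, lie at the lower right.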

How the data were processed

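RNA of the left hippocampus was sequenced in 18 libraries as single-end reads of 110 bases. The authors deposited 1 table of raw gene counts. Per the submitters' processing notes it was made with FastQC, Trimmomatic, HISAT2 and featureCounts on rn6, with DESeq2 also named; versions, annotation, strand setting and the treatment of reads with several matches are, in the sources used here, not given, so near-identical copies such as the globins, and overlapping or antisense genes, are uncertain. No count was changed. Genes were filtered with filterByExpr on the 4 groups, scaled with TMM factors and tested with edgeR 4.0.16 (R 4.3.3; robust quasi-likelihood F test, 15 residual degrees of freedom for model plus seizure), with Benjamini-Hochberg adjustment over 13338 genes. CPM are TMM-scaled, and log2 CPM have a prior count of 2. Within-model and KA minus KI values come from a fit with the 4 groups (14 residual degrees of freedom). The steps were tested on simulated data. Alternatives used DESeq2 1.42.0, limma 3.58.1, other factors, filters and covariates, and fewer libraries.

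The named genes were up to 12 called rises and 12 called falls with a mean log2 CPM of at least 1. These also had to have a symbol that is not a placeholder such as LOC, and the same sign in both models. Added were up to 2 members of each of 31 lists with the smallest p and the 6 called genes with the widest gap between groups. So were up to 4 genes in each direction that were called both on average and in KA minus KI, of which there were 0. Loxhd1, Shox2 and Rgr, called from lower levels, the separated genes that were not called, and Mbp, Sirt2, Gfap, Fos, Slc1a2, Slc1a3, Aldoc, Hba-a1 and Spp1 were picked once their values had been seen. The comparison and the lists were chosen with earlier results of these data known. Of the called genes, 1 is not reported here. Promoters are RefSeq's (GRCr8), matched by symbol.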

Additional observations from a re-analysis of the deposited data

Results flagged for a closer look

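The KA shams, the KI shams and the KI seizure libraries were each checked for a library apart. The KA seizure group was too small for this check and has no entry. A single library stood far from the rest of its group for 32 of 285 combinations of gene and group, over 95 named genes. Chance gives about 1 in 20 such groups, and the genes are not independent. KA sham 1 was that library 9 times: it was the lowest KA sham for Pnlip (4.70 CPM), Tmem163 (11.1 CPM), Cdkn1c (8.95 CPM), Cnp (749 CPM), Plk5 (3.18 CPM), Mog (115 CPM) and Ntf3 (2.76 CPM), and the highest for Inhba (4.03 CPM) and Npy (337 CPM). In each of these genes its value lay toward the seizure libraries.

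KI 3 Class V 4 was the library apart 12 times. It was the lowest KI seizure library for Rasd2 (55.5 CPM), Plk5 (1.49 CPM), Bdnf (54.0 CPM), Gria3 (207 CPM), Gja1 (474 CPM) and Kcnd3 (56.4 CPM), and the highest for S1pr3 (25.6 CPM), Ttr (21.3 CPM), Ndufb8 (237 CPM), Dusp5 (17.7 CPM), Hba-a1 (15.9 CPM) and Gfap (4499 CPM). KI 3 Class V 2 was the highest for Marcksl1 (287 CPM) and Irf7 (19 CPM).

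Among the KI shams, KI sham 1 was the lowest for Egr3 (10.3 CPM) and Bcas1 (326 CPM) and the highest for Dusp5 (14.2 CPM) and Hba-a1 (58.6 CPM), KI sham 2 the lowest for Slc4a1 (1.53 CPM), KI sham 3 the highest for Isg15 (61.7 CPM), Irf7 (165 CPM) and Aif1 (105 CPM), and KI sham 4 the highest for Calb2 (35.5 CPM).

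The seizure effect differed between the models in the edgeR test of the difference for 6 named genes. The KA minus KI log2 difference was 1.60 for S1pr3, a sphingosine phosphate receptor of reactive astrocytes, 1.33 for Gfap, 4.13 for Cd74, 2.16 for Fos, 1.06 for Apoe, the lipid carrier of astrocytes and microglia, and -0.70 for Sc5d, an enzyme of cholesterol synthesis.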

How the results depend on the processing

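With all libraries edgeR called 6 genes higher and 12 lower. Other settings gave, higher and lower, 136 and 168 with DESeq2, 283 and 265 with limma-voom with quality weights, 2 and 3 with the ribosomal protein score in the fit, 17 and 0 from KA alone, 382 and 377 from KI alone, 59 and 98 without KI sham 3 and KI sham 4, and 1 and 0 without the 3 libraries rich in ribosomal RNA-like counts. Upper quartile factors gave 21 lower. Leaving out KA sham 1, KI sham 3 and KI sham 4 together, chosen after seeing the data, gave 377 and 790. Leaving out 1 library gave 1 to 100 higher and 0 to 162 lower, 56 to 897 called in KA minus KI (507 with all), 9 to 110 within KA (23) and 9 to 4297 within KI (1332). DESeq2 called 1117, 254 and 2965 in these 3. The replicate block, with model and replicate number as a block, called 0 higher and 0 lower, with 1676 genes at an unadjusted p under 0.05. The labels do not say that numbers pair libraries: same-numbered libraries correlated at -0.17 to 0.01 and none correlated best with its own number. Of 3208 values of named genes under the alternatives 3188 kept their direction. Reversed in fits of 1 model were, in KI alone, Fos (-0.81), Gfap (-0.079), Gadd45b (-0.0746), Cd74 (-1.07), C1s (-0.15) and Selplg (-0.19), and in KA alone Slc1a2 (-0.0514), Slc1a3 (-0.0629), Sc5d (-0.0746), Apoe (0.10), Aif1 (0.10) and Spp1 (0.14). Slc1a3, near 0 with all libraries, also turned with limma-voom with quality weights (-0.0736), with upper quartile factors (-0.0035), without KI sham 3 and KI sham 4 (-0.0239), without these and KA sham 1 (-0.0536) and in 4 fits that leave out 1 library (18 such fits gave -0.0244 to 0.0968). For the other changes the cause was not tested. At the levels of Shox2 and Rgr, few reads limit precision.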
